A study of Mus musculus with 11 samples.

Results

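The oxidative phosphorylation machinery was represented by 103 of the 10885 genes of the deposited table, and each was read in all 11 libraries. Members were the rows whose symbol began with mt-, Nduf, Sdha, Sdhb, Sdhc, Sdhd, Uqcr, Cox4, Cox5, Cox6, Cox7, Cox8 or Atp5. The mitochondrial genome encoded 15 of them, which were 11 proteins, 2 rRNAs and 2 tRNAs. The other 88 were nuclear and fell into complex I (37 subunits and 8 assembly factors), complex II (4 subunits and 3 assembly factors), complex III (8), complex IV (12) and complex V (16). The table held only genes that reached at least 109.3 in some library, so more weakly expressed members, such as tissue-restricted isoforms, were not analysed here, nor were mt-Nd4l and mt-Atp8.

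RNA had been sequenced from dissociated whole-tissue cells of lymph node (LN) and spleen of 6 mice. In the knock-in mice (KI, mice 5 and 6) BCL2, an anti-apoptotic oncogene of B cell lymphoma, was placed at Igk, the kappa light chain locus, which is active in the B lineage. In the transgenic mice (Tg, mice 3 and 4) it was driven by 3'RR, an enhancer block downstream of the immunoglobulin heavy chain genes, and mice 1 and 2 were wild-type (Wt). All 3 genotypes, Wt included, had received sheep red blood cells intraperitoneally 3 times over 3 months, and tissue was taken 1 month after the last dose. Each group held 2 libraries except spleen Tg, which held 1, since a spleen of mouse 3 was not analysed here. Ages, and whether the inserted BCL2 was human or mouse, were not given in the labels used here, so the mouse Bcl2 row checks nothing: it lay between 1246 and 1664 in KI, 2065 and 3171 in Tg and 2338 and 2716 in Wt libraries. Mouse 1 (Wt) was female by Xist, at 12314 in LN and 14513 in spleen, while the remaining mice expressed the Y-linked Ddx3y. The T cell marker Cd3e was present in both tissues in every library, between 1022 and 3575. Recovered reads ran between 11128568 and 24110325 per library, and the least covered member still had 42 reads in its lowest library. Replicates of KI differed more from each other than those of other genotypes: across genes, their log2 differences had an SD of 0.918 in KI LN and 0.903 in KI spleen, against 0.449 in Tg LN, 0.493 in Wt LN and 0.451 in Wt spleen, while the fit uses 1 pooled spread for all groups.

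Oxidative phosphorylation couples electron transport to ATP synthesis in the inner mitochondrial membrane. Complexes I and II pass electrons from NADH and succinate to coenzyme Q, complex III passes them on to cytochrome c and complex IV to oxygen, while complexes I, III and IV pump the protons that complex V uses to make ATP. Core subunits of complexes I, III, IV and V are encoded in mitochondrial DNA and transcribed there as long polycistronic RNAs, whereas all of complex II and the remaining subunits come from nuclear genes, so the machinery needs matched output of both genomes. In lymphocytes this output is known to change with activation and with plasma cell differentiation.

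Values below are the authors' normalised signal, which is gene read counts divided by 1 factor per library. The mitochondrially encoded genes took 1.52% and 1.57% of the summed signal in KI LN (mice 5 and 6), 2.05% and 1.73% in Tg LN (mice 3 and 4) and 2.06% and 1.86% in Wt LN (mice 1 and 2). In spleen they took 1.77% and 1.89% in KI, 1.83% in Tg and 1.79% and 1.81% in Wt. Both KI LN libraries therefore lay below every other library, while KI and Wt spleens overlapped. The nuclear members together took less, 0.534% and 0.582% in KI LN, 0.665% and 0.600% in Tg LN and 0.631% and 0.602% in Wt LN. Their shares in spleen were 0.510% and 0.542% in KI, 0.583% in Tg and 0.545% and 0.623% in Wt, so KI was below Wt in both tissues, in spleen by a margin smaller than the gap between the Wt libraries. With immunoglobulin and haemoglobin genes taken out of the total, these separations changed. Nuclear shares then overlapped in LN, at 0.589% and 0.625% in KI against 0.635% and 0.606% in Wt. They overlapped in spleen too, at 0.557% and 0.572% in KI against 0.556% and 0.636% in Wt. Mitochondrial shares in spleen no longer overlapped, with the lower KI library at 1.93% against 1.82% and 1.85% in Wt, and in LN the KI libraries, at 1.68% and 1.69%, were still the lowest of the 11. From the recovered reads, the Wilson 95% intervals of these shares were at most 0.00834 percentage points to either side, which covers counting error only.

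**Figure D1:**
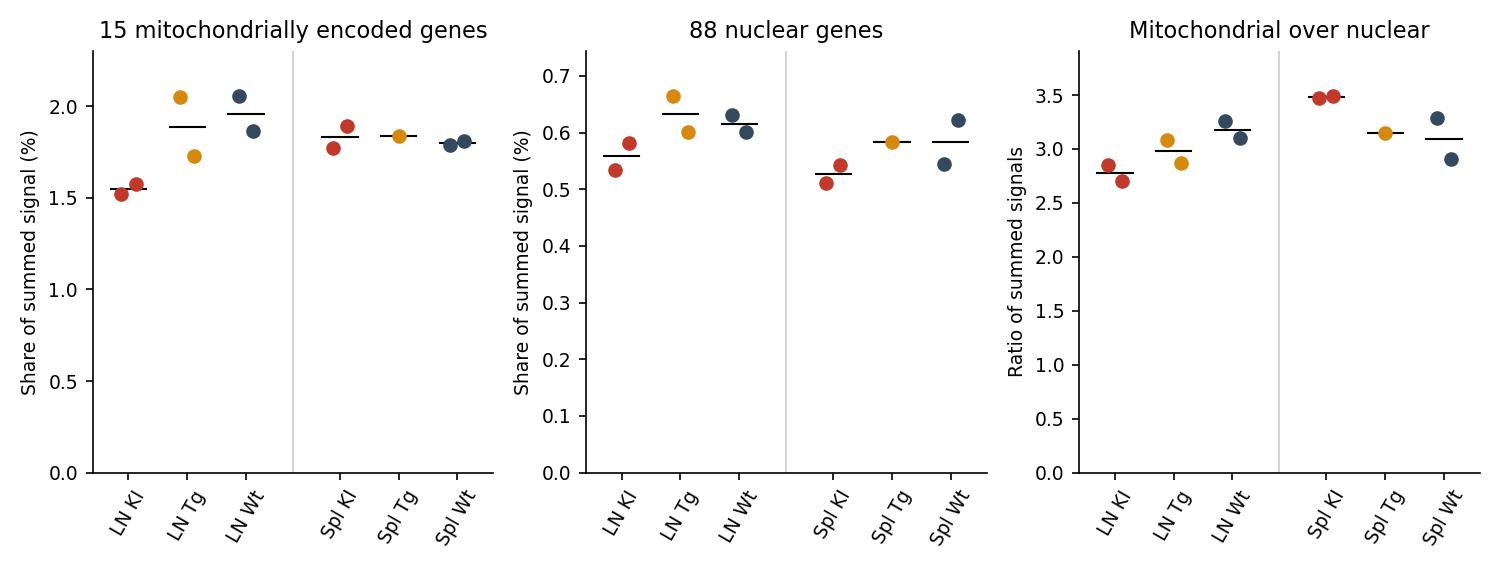
Share of the summed signal (%) taken by the 15 mitochondrially encoded genes (left) and the 88 nuclear genes (middle), and the ratio of their sums (right), by tissue and genotype (Spl is spleen). Points are libraries and bars are group means; the KI points are the lowest of LN in the left panel and the highest of spleen in the right panel.

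The ratio of mitochondrially encoded to nuclear signal put KI on opposite sides of Wt in the 2 tissues. It was 2.85 and 2.70 in KI LN, 3.09 and 2.87 in Tg LN and 3.26 and 3.10 in Wt LN. In spleen it was 3.47 and 3.49 in KI, 3.15 in Tg and 3.28 and 2.90 in Wt. KI was thus below Wt in LN and above Wt in spleen without overlap in either tissue, with mean differences of -0.40 and 0.39. The 2 Wt spleens lay far apart, and the spleen difference ran between 0.198 and 0.579 with 1 library left out. In spleen the mitochondrial shares of KI and Wt overlapped, while the nuclear shares were lower in KI, so the higher ratio does not show more mitochondrial signal. No test was made of these sums, which are given as values by library. A single gene, mt-Co1, made between 43.7% (Wt spleen of mouse 2) and 48.2% (Tg LN of mouse 4) of the mitochondrially encoded signal. Without the rRNAs and tRNAs the ratio was 2.66 and 2.51 in KI LN against 3.06 and 2.86 in Wt LN. The KI spleen values were 3.18 and 3.17, against 2.99 and 2.62 in Wt spleen.

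Among the mitochondrially encoded proteins, level per length differed by orders of magnitude, and it went with the presence of copies elsewhere in the annotation. By mean signal per kb of annotated exon (GENCODE M21), mt-Co1, a catalytic subunit of complex IV, stood at 94341, mt-Cytb of complex III at 41441 and mt-Nd1 of complex I at 34792. The other complex I genes mt-Nd2, mt-Nd5, mt-Nd4 and mt-Nd6 followed at 19220, 13753, 11373 and 10424. Yet mt-Co2, also a catalytic subunit of complex IV, stood at 780, mt-Atp6 of complex V at 706, mt-Co3 of complex IV at 522 and mt-Nd3 of complex I at 213. These 4 genes were the ones with a copy in another annotated gene at 99.7% identity or more over at least 99% of their length: Gm28661 for mt-Co2 (100% over 681 bases), Gm28437 for mt-Co3 (100% over 783 bases), Gm10925 for mt-Atp6 (100% over 678 bases) and Gm28438 for mt-Nd3 (99.71% over 345 bases). The full-length copy of mt-Co1, Gm13340, was 97.61% identical, and the identical copy of mt-Nd4, Gm28439, spanned 63.6% of that gene. The setting for reads with several equal matches was not given in the sources used here and its part in these levels was not tested; together the 4 genes gave 0.509% of the signal of the 11 proteins. The annotation used for the copies is of build GRCm38, not the authors' GRCm39.

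In KI LN, 4 of the 15 mitochondrially encoded transcripts fell relative to Wt LN and none rose, by limma at an adjusted p of 0.05, beside 26.0% of all genes called and 12.2% called lower in this comparison. The genes were mt-Nd1, mt-Nd2 and mt-Nd4, core subunits of complex I, and mt-Rnr2, the large ribosomal RNA of the organelle. The point estimate was below 0 for 14 of the 15, with a median log2 fold change of -0.36 beside -0.02 over all genes, and KI lay below Wt without overlap for 11, beside 34.8% of all genes.

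mt-Nd2 had a signal of 17381 and 16011 in KI LN, against 22965 and 22648 in Wt LN. Both KI libraries lay far below both Wt libraries, which were close to each other, and the log2 fold change was -0.45 ± 0.11 (SE; limma adjusted p = 0.0144). mt-Nd4 had 14506 and 12958 in KI LN, against 19570 and 17067 in Wt LN, a log2 fold change of -0.41 ± 0.12 (limma adjusted p = 0.0236). The groups did not overlap here either, though the Wt libraries stood further apart. mt-Nd1 had 28387 and 27683 in KI LN, against 37278 and 33928 in Wt LN, and fell by 0.34 ± 0.11 on the log2 scale (limma adjusted p = 0.0435); under quantile normalisation its estimate turned to 0.02, and it was called in 11 of 27 alternatives. mt-Rnr2 had 12352 and 12635 in KI LN, against 15939 and 20173 in Wt LN, a fall of 0.52 ± 0.17 that lay at the threshold (limma adjusted p = 0.0493). Each of these genes had its KI libraries close together and below both Wt libraries. These were mRNA libraries, and whether the mt-Rnr2 signal follows the amount of rRNA was not tested.

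The most abundant mitochondrial transcripts also had lower values in KI LN without passing the test. mt-Co1 had 127517 and 130034 in KI LN, against 172022 and 150166 in Wt LN (log2 fold change -0.32 ± 0.13, limma adjusted p = 0.0960). mt-Cytb had 41280 and 40560 in KI LN, against 56152 and 49926 in Wt LN (-0.37 ± 0.13, limma adjusted p = 0.0643). For both, the KI libraries lay below both Wt libraries, with a smaller gap to Wt mouse 2 than to Wt mouse 1. mt-Nd5 had 21016 and 21523 in KI LN, against 29360 and 28685 in Wt LN (-0.45 ± 0.16, limma adjusted p = 0.0609). mt-Nd6, the one protein gene on the other strand, overlaps mt-Nd5 and was at -0.54 ± 0.21 (limma adjusted p = 0.0828). As the strand setting was not given, reads in the stretch they share cannot be told apart, and its length was not measured. mt-Rnr1, the small ribosomal RNA, overlapped: it had 5801 and 6730 in KI LN, against 6862 and 5784 in Wt LN (-0.01 ± 0.19, limma adjusted p = 0.975).

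Of the 10 member calls, the 4 mitochondrial ones rested on the scaling and on single libraries. mt-Nd2 and mt-Nd4 were called in 16 of 27 alternatives, mt-Nd1 in 11 and mt-Rnr2 in 9. Among the nuclear calls, Atp5g2 was called in 11 of 27, Ndufb1 in 21, Uqcrfs1 in 23, Ndufa10 in 24 and Cox7a2l in 25. Sdhaf1 was called in all 26 that gave it a p. After removal of immunoglobulin and haemoglobin genes and rescaling, none of the 15 was called, and with quantile normalisation 1 was. That removal moved the median of all genes by 0.13 on the log2 scale, and relative to the median of all genes the 15 stood at -0.33 both with and without those genes, and at -0.18 under quantile normalisation. The immunoglobulin share of the signal was 9.46% and 6.77% in KI LN, against 0.662% and 0.751% in Wt LN. With 1 library left out at a time, 0 of the 15 were called without KI LN of mouse 6, 1 each without KI LN of mouse 5 or Wt LN of mouse 1 or mouse 2, 2 each without a KI or Wt spleen library, and 7 each without Tg LN of mouse 3 or mouse 4. The count over all members was 6 and 4 without KI LN of mouse 5 and mouse 6, and 16 without either Tg LN library. DESeq2 on the recovered LN reads called 10 members, 4 of them mitochondrial, and edgeR called 5, with 0 mitochondrial.

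**Figure D2:**
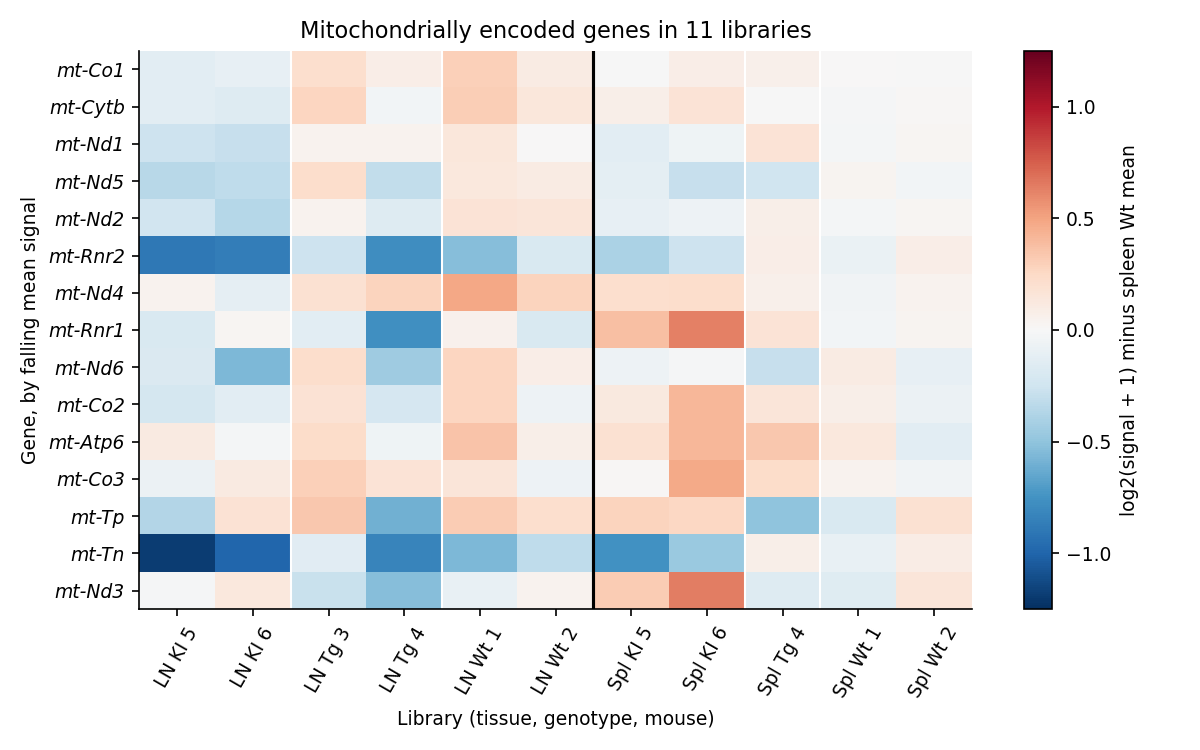
Each mitochondrially encoded gene (rows, by falling mean signal) in each library (columns, with tissue, genotype and mouse), as log2(signal + 1) minus the mean of the 2 spleen Wt libraries. The KI LN columns are blue in most rows and the KI spleen columns are not, except for mt-Rnr2, mt-Tn and some complex I genes.

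In KI LN 5 of the 88 nuclear members fell and 1 rose, so 6.82% were called beside 26.0% of all genes, of which 13.8% were higher. Their median log2 fold change was -0.09, and 61 of the 88 estimates were below 0, but after the same removal the median turned to 0.04 and 36 of 88 lay below 0. Relative to the median of all genes the nuclear median was -0.07 and -0.06 under the 2 scalings. The median of the 45 complex I members was -0.03, that of the 16 complex V members -0.22 and that of the 8 complex III members -0.23.

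Sdhaf1, an assembly factor that helps insert the iron-sulphur clusters of complex II, changed most among the nuclear members. It had 57.1 and 50.6 in KI LN, against 123 and 127 in Wt LN, and the groups stood far apart. Its log2 fold change was -1.20 ± 0.24 (limma adjusted p = 0.00431), and it kept its call in all 26 alternatives that gave it a p. In spleen it had 60.9 and 63.8 in KI, against 100.3 and 95.2 in Wt, which do not overlap but gave no call (-0.64 ± 0.24, limma adjusted p = 0.0882). An antisense gene, E130208F15Rik, overlaps its exons.

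Cox7a2l, which joins complexes III and IV into supercomplexes, had 2814 and 2981 in KI LN, against 5149 and 4100 in Wt LN, and in spleen 2417 and 2738 in KI, against 3638 and 3690 in Wt. The KI libraries were the lowest in both tissues, with log2 fold changes of -0.67 ± 0.14 in LN and -0.51 ± 0.14 in spleen (limma adjusted p = 0.00507 and 0.0280). Uqcrfs1, the Rieske iron-sulphur protein of complex III, had 921 and 913 in KI LN, against 1253 and 1274 in Wt LN, and in spleen 807 and 848 in KI, against 1291 and 1281 in Wt. Replicates nearly coincided in each group, and the fall was 0.46 ± 0.10 in LN and 0.64 ± 0.10 in spleen on the log2 scale (limma adjusted p = 0.00739 and 0.00311). Atp5g2, which encodes subunit c of the complex V rotor, had 1611 and 1684 in KI LN, against 2232 and 1923 in Wt LN, and in spleen 1462 and 1447 in KI, against 1826 and 2016 in Wt. It fell by 0.33 ± 0.11 in LN and 0.40 ± 0.11 in spleen (limma adjusted p = 0.0452 and 0.0303), a smaller margin that kept the LN call in 11 of 27 alternatives. A copy, Gm10175, is identical to Atp5g2 over 645 of its 731 bases. These 3 genes were the members called lower in both tissues, 30.0% of the LN calls and 37.5% of the spleen calls among members. Over all genes, 601 were called lower in both tissues, 21.2% of the LN calls and 32.8% of the spleen calls.

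The remaining nuclear LN calls lay in complex I and went opposite ways. Ndufa10, an accessory subunit of complex I, had 997 and 907 in KI LN, against 1311 and 1354 in Wt LN, and the groups did not overlap (log2 fold change -0.49 ± 0.11, limma adjusted p = 0.00719). In spleen it had 852 and 901 in KI, against 1086 and 1074 in Wt, with the same order of the groups but no call (-0.30 ± 0.11, adjusted p = 0.0769). Ndufb1, another accessory subunit, was the single member that rose: 462 and 417 in KI LN, against 247 and 234 in Wt LN (0.87 ± 0.21, limma adjusted p = 0.0116). In spleen it overlapped, with 281 and 290 in KI, against 238 and 303 in Wt. Cpsf2 has exons that overlap Ndufb1 on the opposite strand. It rose in LN, with 2399 and 1885 in KI against 1379 and 1282 in Wt (0.68 ± 0.13, limma adjusted p = 0.00414). Cpsf2 also rose in spleen (0.65 ± 0.13, limma adjusted p = 0.00934), where the Ndufb1 groups overlapped. Without the strand setting, reads in the stretch these genes share cannot be told apart, and its length was not measured.

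**Figure D3:**
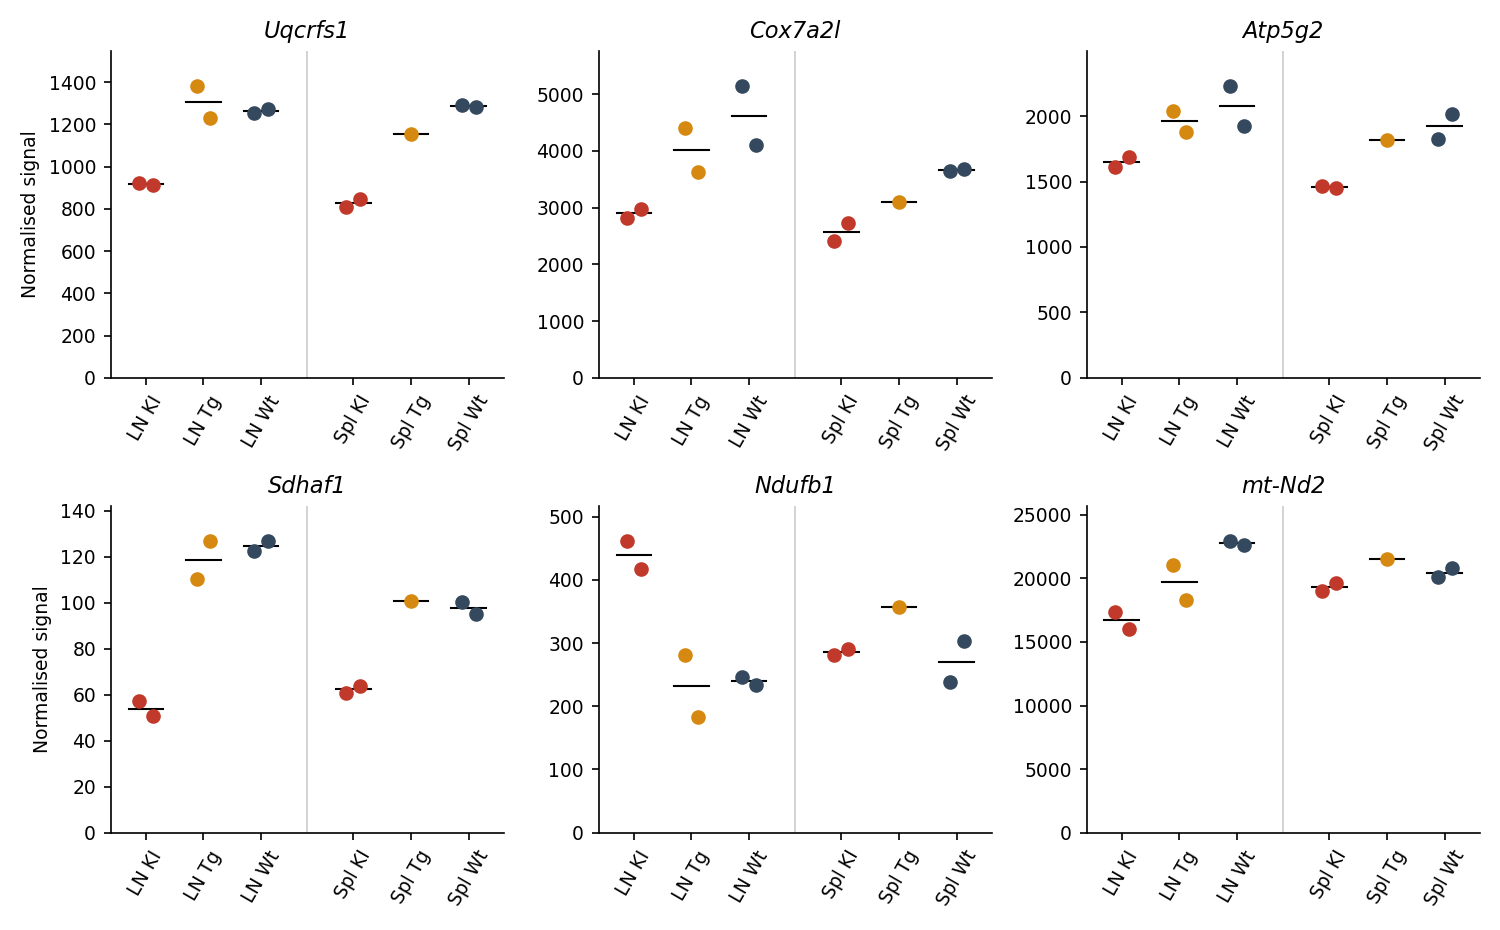
Normalised signal of 6 members in each library, by tissue and genotype (Spl is spleen); points are libraries and bars are group means, and each axis starts at 0. Uqcrfs1, Cox7a2l and Atp5g2 are lowest in KI in both tissues, Sdhaf1 is near 54 in KI LN, Ndufb1 is highest in KI LN, and mt-Nd2 is lowest in KI LN.

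In KI spleen, the calls fell on nuclear subunits of complexes III, IV and V and on no mitochondrially encoded gene. Of the 103 members 8 fell and 0 rose, a smaller share than the 16.8% of all genes called, of which 9.21% were lower and 7.63% higher. The calls were 2 of the 8 members of complex III, 2 of the 12 of complex IV and 4 of the 16 of complex V. There were 0 of 45 in complex I and 0 of 7 in complex II. Median log2 fold changes were -0.30, -0.29 and -0.26 in complexes III, IV and V, beside 0.01 over all genes, and -0.08 and 0.01 in complexes I and II. In complex IV all 12 estimates were below 0, and KI lay below Wt without overlap for 10 of them, beside 31.9% of all genes. After removal of immunoglobulin and haemoglobin genes, the median of the 88 nuclear members in spleen went from -0.11 to -0.02. Estimates below 0 went from 71 to 53 of 88. Relative to the median of all genes the nuclear median was -0.12 under both scalings.

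Beside Uqcrfs1, Cox7a2l and Atp5g2, the spleen calls were Atp5c1, Atp5l, Atp5md, Uqcrq and Cox6c. Atp5c1, the gamma subunit that forms the rotating shaft of complex V, had 1571 and 1608 in KI spleen, against 2118 and 2208 in Wt spleen, with replicates close together in both groups (log2 fold change -0.44 ± 0.10, limma adjusted p = 0.0156). In LN it had 1776 and 2015 in KI, against 2346 and 2198 in Wt, again without overlap but uncalled (-0.26 ± 0.10, adjusted p = 0.0825). Atp5l (subunit g of complex V) stood at -0.50 ± 0.12, Atp5md (a small membrane subunit of complex V) at -0.66 ± 0.17, Uqcrq (a small subunit of complex III) at -0.48 ± 0.13 and Cox6c (a small subunit of complex IV) at -0.51 ± 0.15 in spleen, with limma adjusted p between 0.0163 and 0.0383. Atp5l and Atp5md share stretches of at least 95% identity with 136 and 129 other annotated genes, Cox6c with 5 and Atp5c1 with 2. The longest such stretch covered 72.4% of the transcript for Atp5l, 6.51% for Atp5md, 45.9% for Cox6c and 59.1% for Atp5c1. Counts of these genes may be uncertain, and the part of the copies in them was not tested.

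The spleen count rested on its own 4 libraries: it was 1 without either KI spleen or without Wt mouse 2, and 2 without Wt mouse 1, beside 8 in full. Removal of immunoglobulin and haemoglobin genes left 4. Uqcrfs1 was called in spleen in all 25 alternatives.

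No mitochondrially encoded gene was called in spleen, and most estimates were above 0. Their median log2 fold change was 0.12, with 9 of 15 above 0, and KI lay above Wt without overlap for 7, beside 34.4% of all genes, and below Wt without overlap for 5, beside 31.9%. mt-Rnr1 had 8580 and 10207 in KI spleen, against 6453 and 6774 in Wt spleen (0.50 ± 0.19, limma adjusted p = 0.102). mt-Nd4 had 16255 and 16320 in KI spleen, against 13642 and 14430 in Wt spleen (0.22 ± 0.12, limma adjusted p = 0.229). Both KI spleens exceeded both Wt spleens for these genes, while mt-Rnr2, at 17426 and 19265 in KI spleen against 21656 and 24382 in Wt spleen, had its KI libraries below both Wt libraries (-0.33 ± 0.17, adjusted p = 0.224). mt-Co1 overlapped, with 139606 and 147938 in KI spleen against 140430 and 139667 in Wt spleen, and mt-Nd1 had 30832 and 32593 in KI spleen against 33247 and 34507 in Wt spleen. mt-Cytb had 47659 and 51183 in KI spleen against 44753 and 45932 in Wt spleen.

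**Figure D4:**
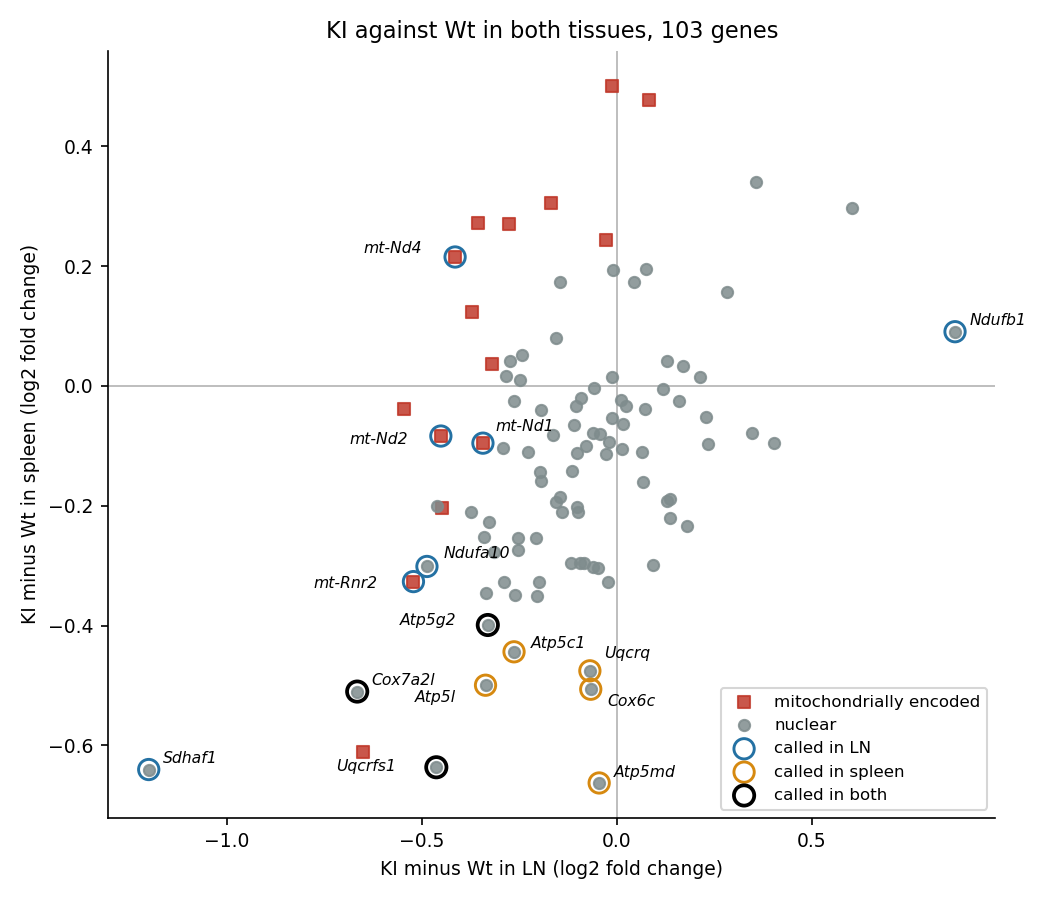
Log2 fold change of KI over Wt in LN (horizontal axis) and in spleen (vertical axis) for the 103 members; squares are mitochondrially encoded, circles nuclear, and rings mark genes called in LN, in spleen or in both. The squares lie mostly left of 0 and spread on both sides of 0 in spleen, and the genes called in spleen lie at -0.40 or below on the vertical axis.

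The difference between the KI effects in the 2 tissues was tested directly, and no member passed, beside 0.955% of all genes called. At an unadjusted p under 0.05 there were 6 members, beside 1584 of all genes, and with the mouse as a fixed term the test called 0 members, beside 5.48% of all genes. The 5 members with the smallest p were mt-Nd4 (LN effect minus spleen effect -0.63 ± 0.16, limma adjusted p = 0.0921), Ndufb1 (0.78 ± 0.30, 0.247), mt-Cytb (-0.50 ± 0.19, 0.249), Atp5md (0.62 ± 0.24, 0.262) and mt-Nd2 (-0.37 ± 0.16, 0.324). The estimate was below 0 for all 15 mitochondrially encoded genes, with a median of -0.40, while the nuclear median was 0.05. The 15 share 1 genome and 1 set of libraries and are not independent.

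Over the 11 mitochondrially encoded proteins, the mean log2(signal + 1) relative to the spleen Wt mean was -0.13 and -0.16 in KI LN, against 0.22 and 0.08 in Wt LN. The KI spleen values were 0.05 and 0.18, against 0.01 and -0.01 in Wt spleen. For nuclear complex V it was -0.15 and 0.00 in KI LN, against 0.11 and 0.03 in Wt LN. The KI spleen values were -0.28 and -0.24, against -0.09 and 0.09 in Wt spleen. For complex V, KI was below Wt in both tissues, but after removal of immunoglobulin and haemoglobin genes the LN groups overlapped, at -0.06 and 0.10 in KI against 0.07 and -0.02 in Wt. The 7 mitochondrial proteins without a near-identical copy were at -0.18 and -0.27 in KI LN, against 0.26 and 0.12 in Wt LN, and they overlapped in spleen, at -0.02 and 0.01 in KI against 0.01 and -0.01 in Wt. The 4 with such a copy overlapped in LN and were higher in KI spleen, at 0.16 and 0.49 against 0.02 and -0.02 in Wt spleen. Complexes III and IV resembled complex V in spleen, at -0.26 and -0.22 and at -0.30 and -0.23 in KI. Nuclear complex I was at -0.02 and 0.08 in KI LN, against 0.08 and 0.01 in Wt LN. The KI spleen values were -0.10 and -0.04, against -0.11 and 0.11 in Wt spleen, so the groups overlapped in both tissues. Complex II was -0.20 and -0.08 in KI LN, against 0.12 and 0.09 in Wt LN, and overlapped in spleen. After removal of immunoglobulin and haemoglobin genes, KI spleens stayed below Wt spleens in complexes III, IV and V, by smaller gaps. Complex III was then at -0.16 and -0.14 in KI spleen, against -0.10 and 0.10 in Wt spleen. Complex IV was at -0.20 and -0.15 against -0.12 and 0.12, and complex V at -0.17 and -0.16 against -0.09 and 0.09.

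**Figure D5:**
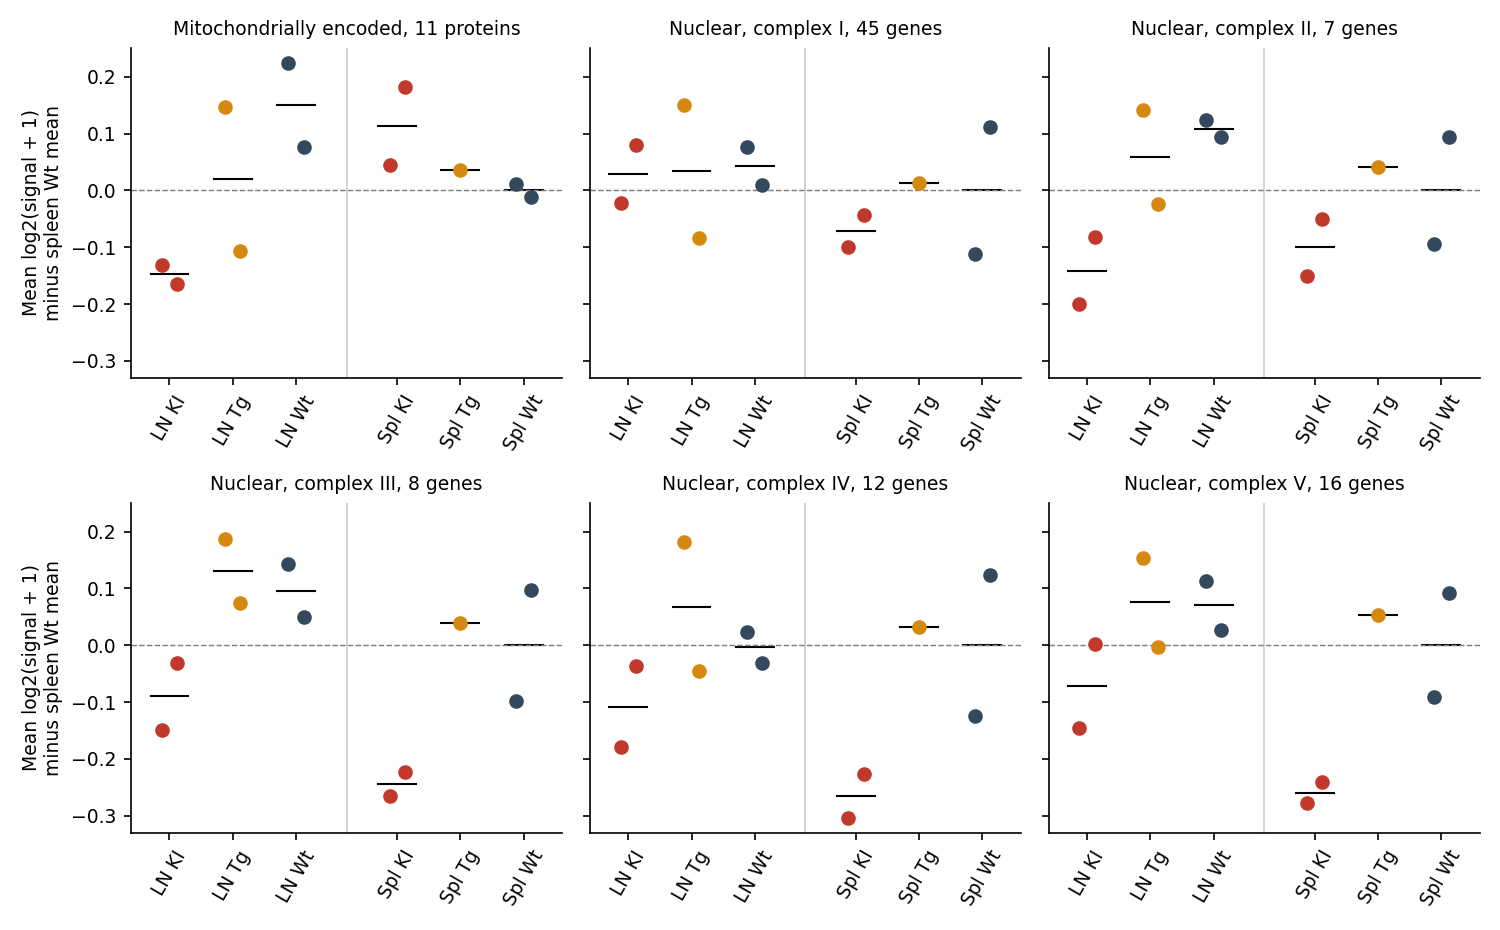
Mean log2(signal + 1) over the members of each class, minus the mean of the 2 spleen Wt libraries (dashed line at 0), by tissue and genotype (Spl is spleen); points are libraries and bars are group means. In spleen, KI is lowest for nuclear complexes III, IV and V at between -0.22 and -0.30, and complex I overlaps between KI and Wt.

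The sequences upstream of the nuclear members were read for motifs that OXPHOS promoters are known for, with windows from RefSeq (GRCm38.p6) of 300 bases, 250 before the annotated start and 50 from it on. A window was found for 75 of the 88 nuclear members. The NRF1 core (GCGCANGCG, either strand), a motif of nuclear respiratory factor 1, was in 21 of them, or 28.0%, beside 14.8% of the windows of table genes and 6.47% of all 27025 windows. The motif of GABP and other ETS factors (CCGGAAG) was in 26.7%, beside 20.3% and 9.12%, and that of YY1 (AAGATGGC) in 13.3%, beside 5.26% and 2.88%; none of the 3 motifs was found in 32 member windows. A match is a description of letters, not a bound site.

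The windows of the 3 members called lower in both tissues and of the 2 with the largest changes in LN follow, 5' to 3' on the gene's strand, which is minus for each, in lower case with motif matches in capitals. They lie at chr13:30545267-30545566 (Uqcrfs1), chr17:83514284-83514583 (Cox7a2l), chr15:102670998-102671297 (Atp5g2), chr7:30322326-30322625 (Sdhaf1) and chr12:101975689-101975988 (Ndufb1). Atp5g2 holds 2 overlapping NRF1 matches between 42 and 33 bases before its start, Sdhaf1 holds 1 ETS match shortly after its start, and no letters of the 3 motifs were found in the other windows.
Uqcrfs1: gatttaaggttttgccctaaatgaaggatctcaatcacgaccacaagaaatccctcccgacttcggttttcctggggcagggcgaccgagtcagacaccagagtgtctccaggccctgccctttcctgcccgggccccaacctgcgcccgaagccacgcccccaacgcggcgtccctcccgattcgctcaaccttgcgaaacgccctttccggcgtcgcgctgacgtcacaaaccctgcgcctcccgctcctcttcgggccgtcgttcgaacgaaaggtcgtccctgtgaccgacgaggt
Cox7a2l: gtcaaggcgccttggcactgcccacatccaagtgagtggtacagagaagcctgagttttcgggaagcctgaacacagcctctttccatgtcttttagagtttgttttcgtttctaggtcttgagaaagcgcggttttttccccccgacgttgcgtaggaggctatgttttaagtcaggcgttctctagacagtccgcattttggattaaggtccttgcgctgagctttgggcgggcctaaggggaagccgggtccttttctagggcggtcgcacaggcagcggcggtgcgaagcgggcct
Atp5g2: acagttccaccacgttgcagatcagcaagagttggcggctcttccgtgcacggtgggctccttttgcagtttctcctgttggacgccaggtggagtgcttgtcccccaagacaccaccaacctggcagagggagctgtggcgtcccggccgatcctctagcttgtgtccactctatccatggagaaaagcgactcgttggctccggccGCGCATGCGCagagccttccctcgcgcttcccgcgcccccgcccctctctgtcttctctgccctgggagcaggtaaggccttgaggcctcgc
Sdhaf1: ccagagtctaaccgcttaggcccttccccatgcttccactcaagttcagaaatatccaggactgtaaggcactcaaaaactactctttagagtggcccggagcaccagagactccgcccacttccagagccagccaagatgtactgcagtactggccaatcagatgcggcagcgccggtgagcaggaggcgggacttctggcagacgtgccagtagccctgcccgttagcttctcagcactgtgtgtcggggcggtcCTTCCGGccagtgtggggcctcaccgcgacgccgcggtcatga
Ndufb1: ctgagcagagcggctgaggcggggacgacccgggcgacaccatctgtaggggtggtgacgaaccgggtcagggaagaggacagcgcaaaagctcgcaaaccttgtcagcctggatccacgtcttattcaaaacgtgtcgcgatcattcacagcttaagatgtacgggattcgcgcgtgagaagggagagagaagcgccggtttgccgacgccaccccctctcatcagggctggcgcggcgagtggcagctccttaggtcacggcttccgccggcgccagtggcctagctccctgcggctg

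The signal of cell type markers in the bulk tissue differed between KI and Wt, and in bulk samples fewer cells of a type and less RNA per cell cannot be told apart. Over all genes, 13.8% were called higher and 12.2% lower in KI LN, and 7.63% higher and 9.21% lower in KI spleen. Of 20 plasma cell markers, 18 rose in KI LN and 0 fell, and their summed signal was 185663 and 186636 in KI LN, against 24818 and 30082 in Wt LN. Of 23 T cell markers, 21 fell in KI LN and 20 in KI spleen; their sum was 62867 and 80396 in KI LN, against 150397 and 138812 in Wt LN. The KI spleen values were 36726 and 39600, against 75423 and 77929 in Wt spleen. Proliferation genes rose in LN, 21 of 28, and not in spleen, where 0 rose and 1 fell; their sum was 33554 and 27715 in KI LN, against 20281 and 19630 in Wt LN. Germinal centre markers rose for 11 of 16 in LN and 6 of 16 in spleen, and 12 of 20 plasma cell markers rose in spleen. No marker of these 4 lists was at 0 in any library. The sum of 20 pan B cell markers overlapped in LN, at 259472 and 208621 in KI against 188860 and 235263 in Wt. In spleen that sum was 319562 and 354089 in KI, against 319346 and 295535 in Wt. Immediate early genes, which respond to tissue handling among other signals, fell for 11 of 15 in KI spleen and 6 of 15 in KI LN. Macrophage markers fell for 9 of 18 in LN and 0 in spleen. Of 14 neutrophil markers none was called in either tissue, and of 11 erythroid markers 1 rose in each, but single spleens stood apart; the neutrophil markers Elane and Ly6g were at 0 in some library. The neutrophil sum was 2617 and 8002 in KI spleen, 50129 in Tg spleen and 7342 and 57760 in Wt spleen, so Tg mouse 4 and Wt mouse 2, which also had the highest nuclear OXPHOS shares of the spleens (0.583% and 0.623%), were far above the rest. The erythroid sum was 27505 and 4849 in KI spleen, 1981 in Tg spleen and 1398 and 1516 in Wt spleen, highest in KI mouse 5. The part of these shifts in the OXPHOS values was not tested.

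Each list of genes that express and assist the organelle had a smaller share called than all genes, of which 26.0% were called in KI LN and 16.8% in KI spleen. Of 26 genes of mitochondrial DNA transcription, replication and RNA handling, 3 rose and 2 fell in KI LN, with a median log2 fold change of 0.04, and 2 rose and 1 fell in KI spleen. Polrmt, the mitochondrial RNA polymerase, was at 0.02 ± 0.12 in LN (limma adjusted p = 0.939) and rose by 0.56 ± 0.12 in spleen (adjusted p = 0.00951). Tbrg4, which is known to act in mitochondrial RNA processing, fell by 0.46 ± 0.10 in LN and 0.44 ± 0.10 in spleen (limma adjusted p = 0.00711 and 0.0150). Polg2, the accessory subunit of the mitochondrial DNA polymerase, rose in LN by 0.63 ± 0.16 (limma adjusted p = 0.0140).

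Myc, a transcription factor known to raise mitochondrial biogenesis, fell by 1.42 ± 0.15 in KI LN and 2.17 ± 0.15 in KI spleen on the log2 scale (limma adjusted p = 0.000125 and 5.36e-05). It was 1 of 2 biogenesis regulators of 12 that fell in LN and the single one of 12 that fell in spleen. Of 77 mitochondrial ribosome genes 5 fell and 0 rose in LN, and 1 rose and 1 fell in spleen, with medians of -0.07 and -0.01; Mrps30, a small subunit protein, fell by 0.68 ± 0.13 in LN and 0.46 ± 0.13 in spleen (limma adjusted p = 0.00427 and 0.0382). Of 19 genes of electron carriers and coenzyme Q synthesis, 1 rose and 1 fell in LN and 2 fell in spleen; Coq10b, a coenzyme Q binding protein, fell by 0.96 ± 0.19 in LN and 1.52 ± 0.19 in spleen (limma adjusted p = 0.00434 and 0.000889). Of 43 assembly factors outside the symbol rule, 2 rose and 1 fell in LN, and 2 rose and 2 fell in spleen. Tmem126b, a complex I assembly factor, rose by 0.90 ± 0.26 in LN and 1.03 ± 0.26 in spleen (limma adjusted p = 0.0263 and 0.0227), and Cox10, which makes the haem of complex IV, fell in LN by 0.62 ± 0.15 (adjusted p = 0.0114). Of 21 genes of the tricarboxylic acid cycle, 1 rose and 2 fell in LN (among them Pdha1 of pyruvate dehydrogenase, -0.48 ± 0.11, limma adjusted p = 0.0113) and 1 fell in spleen, and of 31 genes of import and protein quality control, 2 fell in LN and 1 in spleen.

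Glycolysis, the cytosolic pathway that makes ATP without oxygen, was read for comparison. Of 22 genes, 8 fell and 2 rose in KI LN, and 7 fell and 0 rose in KI spleen, with medians of -0.28 and -0.40. Over all genes 12.2% fell and 13.8% rose in LN, and 9.21% fell and 7.63% rose in spleen. Ldha, which makes lactate, fell by 0.41 ± 0.13 in LN and 0.79 ± 0.13 in spleen (limma adjusted p = 0.0440 and 0.00393). Hexokinases went apart in LN: Hk1 fell by 0.60 ± 0.13 and Hk2 rose by 0.72 ± 0.16 (limma adjusted p = 0.00719 and 0.00913). The difference between glycolysis and OXPHOS genes was not tested.

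Tg animals had no called member in either tissue, and limma called 0.0% of all genes in LN and 0.0% in spleen. At an unadjusted p under 0.05 there were 532 genes in Tg LN and 164 in Tg spleen, of which 1 and 0 were members. On recovered LN reads edgeR called 0 genes and DESeq2 called 29, with 0 members in either. The member with the smallest p in LN was Ndufaf8, a complex I assembly factor, at 0.52 ± 0.22 (limma adjusted p = 0.960). Of the 3 genes that fell in both KI tissues, Uqcrfs1 had 1383 and 1228 in Tg LN, against 1253 and 1274 in Wt LN, and 1156 in Tg spleen, against 1291 and 1281 in Wt spleen. Cox7a2l had 4397 and 3622 in Tg LN, against 5149 and 4100 in Wt LN. mt-Nd2 had 21055 and 18303 in Tg LN, against 22965 and 22648 in Wt LN (-0.22 ± 0.11, limma adjusted p = 0.960). In spleen Cox7a2l had 3093 in Tg, against 3638 and 3690 in Wt. Atp5g2 had 2041 and 1882 in Tg LN, against 2232 and 1923 in Wt LN, and in spleen 1818 in Tg, against 1826 and 2016 in Wt. Tg and Wt overlapped in LN for Uqcrfs1, Cox7a2l and Atp5g2 and not for mt-Nd2, and the lone Tg spleen lay below both Wt spleens for all 3 nuclear genes, and a missed threshold does not show that the genotypes were alike.

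Against Tg, KI LN had 1 higher and 7 lower members, beside 26.7% of all genes called, 14.5% higher and 12.2% lower. The comparison shares its KI libraries with KI against Wt, so the estimates are given side by side only. Sdhaf1 was at -1.12 ± 0.24 against Tg and -1.20 against Wt, Uqcrfs1 at -0.51 ± 0.10 and -0.46, Cox7a2l at -0.46 ± 0.14 and -0.67, and Ndufb1 at 0.95 ± 0.21 and 0.87. Called against Tg and not against Wt were Cox5a, Atp5d, Ndufaf4 and Uqcr10, at between -0.40 and -0.47 (limma adjusted p between 0.0335 and 0.0474), and no mitochondrially encoded gene was called. Cbarp has exons that overlap Atp5d on the opposite strand, and Cbarp was also lower in KI LN than in Tg LN (-0.50 ± 0.15, limma adjusted p = 0.0319). Without the strand setting, reads in the stretch that Atp5d and Cbarp share cannot be told apart. The count of 8 was 3 without either KI LN library, 12 without Tg LN of mouse 3, and 5 and 4 without KI spleen of mouse 5 and mouse 6. In spleen, against the single Tg library, 2 members fell, Atp5c1 (-0.52 ± 0.13) and Uqcrfs1 (-0.48 ± 0.12; limma adjusted p = 0.0325 and 0.0417), beside 7.71% of all genes called and 4.35% lower; the spread of the lone Tg spleen was taken from the other groups. That count was 0 without either KI spleen, 1 each without a KI LN, Wt LN or Wt spleen library, and 4 each without a Tg LN library.

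Between the tissues few members were called. With genotype as an additive term, 1 member was higher and 1 lower in LN than in spleen, beside 15.1% of all genes called, 6.05% higher and 9.07% lower. The mt-Rnr2 signal was lower in LN in all 5 mice with both tissues (log2 difference -0.49 ± 0.11, limma adjusted p = 0.00765). In LN it was 12352 and 12635 in KI, 13399 in Tg and 15939 and 20173 in Wt. In spleen it was 17426 and 19265 in KI, 24380 in Tg and 21656 and 24382 in Wt. Whether this signal follows the amount of rRNA in mRNA libraries was not tested. Cox7a2l was higher in LN in all 5 mice (0.28 ± 0.08, limma adjusted p = 0.0394). Its call was lost with the mouse as a fixed term, after removal of immunoglobulin and haemoglobin genes, under quantile normalisation, without trend or robust moderation, and without any 1 of 7 libraries: KI LN of mouse 6, Tg LN of mouse 3, Wt LN of mouse 1, KI spleen of mouse 5, Tg spleen of mouse 4, and Wt spleen of mouse 1 or mouse 2. The count of 2 was 3 without either Tg LN library. The nuclear members were at a median of 0.08, with 68 of 88 above 0, and all 8 complex III members were above 0, between 0.08 and 0.16.

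Within genotypes, no member passed the tissue comparison, beside 9.27% of all genes called in KI, 4.41% in Tg and 9.38% in Wt. At an unadjusted p under 0.05 there were 8 members in KI, 4 in Tg and 3 in Wt, beside 21.5%, 15.1% and 23.3% of all genes. Without Tg LN of mouse 3 or mouse 4, 3 members were called in KI and 1 in Wt, and without Tg LN of mouse 3, 3 in Tg. In KI, all 15 mitochondrially encoded genes had lower estimates in LN, with a median of -0.27 and no overlap for 14, beside 27.4% of all genes. In Wt, 10 of the 11 mitochondrial proteins had higher estimates in LN, and the median over the 15 was 0.12. With the mouse as a fixed term, 4 members were called in KI, beside 13.5% of all genes: mt-Rnr1, mt-Rnr2 and mt-Co2 were lower in LN (-0.58, -0.55 and -0.45) and Ndufb1 higher (0.62). In Tg that term leaves the 1 LN and 1 spleen of mouse 4, with the spread taken from the other genotypes; mt-Rnr1, mt-Rnr2 and Ndufb1 had LN minus spleen values of -0.93, -0.86 and -0.97 there, which passed the threshold beside 6.56% of all genes but have no replicate in Tg.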

How the data were processed

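Per the labels, mRNA libraries were made with a SMARTER kit from dissociated cells of whole LN or spleen. Per the submitters' processing notes the tools included STAR 2.5, featureCounts (Subread 1.4.6), DESeq2 1.26.0 and FastQC 0.11.5, and the build was GRCm39. Strand and multi-mapping settings are not stated there or in the labels. Each deposited value is a normalised signal: from the values themselves, 100% in each library were whole multiples of 1 step within 0.05 reads, as when the authors divide counts by 1 factor per library. A check on low values passed for LN only, so count tests (edgeR 4.0.16, DESeq2 1.42.0) were run on LN only.

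Members were taken by symbol and grouped by complex, with Ndufa4 in complex IV. Members and gene lists were chosen with earlier results of these data known. limma 3.58.1 (R 4.3.3; trend and robust moderation) was fitted to log2(signal + 1) with 6 group means over 11 libraries, leaving 5 residual degrees of freedom, or with genotype and tissue as additive terms. Fold changes on this scale understate changes of low genes. Benjamini-Hochberg adjustment ran over all 10885 genes, and genes under 0.05 were called. Errors are standard errors. The script was tested on simulated data. Copies in GENCODE M21 transcripts were found with blastn, at 95% identity or more over at least 100 bases; 42 members had one.

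Labels give each mouse a number, which pairs its LN and spleen. Deviations of the 2 tissues of a mouse correlated at 0.403 in Wt and 0.900 in KI, while the consensus correlation of the random term was 0.0168; the mouse was a random or fixed term in alternatives. Values by library are given for selected members, in the groups compared there and not always in every library. They were chosen as the 4 mitochondrial proteins of highest mean and the called mitochondrial genes. The nuclear member with the smallest p in each complex and KI comparison was added, and other called members are named by p. Other alternatives were pseudocounts of 0.1 and 5, a mean signal of at least 200, other scalings, single-tissue fits, leaving out each library, and, added after the data were seen, leaving out both tissues of a mouse.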

Additional observations from a re-analysis of the deposited data

How the results depend on the processing

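With both tissues of 1 mouse left out, the members called for KI against Wt in LN were 3 without mouse 5, mouse 1 or mouse 2, 2 without mouse 6 and 16 without mouse 4, against 10 in full. In spleen that count was 1 without mouse 5, 6, 1 or 2, against 8. For KI against Tg in LN it was 2, 1, 4 and 4 without mouse 5, 6, 1 and 2, against 8, and in spleen 0 without any of these mice, against 2. LN against spleen fell to 1 of 2 without any 1 of mice 5, 6, 4, 1 and 2, and within Wt and KI it became 1 and 3 without mouse 4. No mitochondrial gene was called in LN without mouse 5, 6, 1 or 2, and 7 without mouse 4; in spleen 1 was, without mouse 4. These fits hold fewer samples. With LN libraries alone, or with edgeR, KI against Wt gave 5 members in LN, with 0 mitochondrial, and KI against Tg gave 3. With spleen libraries alone KI against Tg gave 5, and KI against Wt called 1 mitochondrial gene, as did quantile normalisation.

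Leaving out immunoglobulin and haemoglobin genes gave 4 members in spleen for KI against Wt, 0 for KI against Tg and 1 for LN against spleen, and 0 mitochondrial calls in LN. Under that removal the KI minus Wt difference in mitochondrial share became -0.289 points in LN (from -0.411) and 0.129 in spleen (from 0.0335), and that in nuclear share in LN became -0.0135 (from -0.0581). Quantile normalisation left 1 mitochondrial call in LN, turned the mt-Nd1 log2 fold change to 0.0235 and gave 1 call within KI between tissues. TMM factors gave 13 members for KI against Tg in LN. Without trend or robust moderation spleen had 5 members for KI against Wt and 1 for KI against Tg. The cause of these changes was not tested.

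With the replicate block (the mouse as a fixed term), tissue calls became 3 in Tg (on 1 mouse), 4 in KI and 1 for LN against spleen; as a random term it changed no count of calls by over 1.5 times. With 1 library left out, counts ran between 4 and 16 (KI against Wt, LN; mitochondrial 0 to 7, nuclear 4 to 9), 1 and 10 (KI against Wt, spleen; mitochondrial 0 to 1, nuclear 1 to 9), 3 and 12 (KI against Tg, LN), 0 and 4 (KI against Tg, spleen), 1 and 3 (LN against spleen), 0 and 1 (in Wt), 0 and 3 (in Tg) and 0 and 3 (in KI), and stayed at 0 for Tg against Wt in both tissues and for the interaction. The KI minus Wt share differences ran between -0.508 and -0.315 (mitochondrial, LN), -0.0265 and 0.0936 (mitochondrial, spleen), -0.0825 and -0.0337 (nuclear, LN) and -0.0964 and -0.0189 (nuclear, spleen), and ratio differences between -0.482 and -0.320 in LN and 0.198 and 0.579 in spleen. For Tg minus Wt in LN they ran between -0.234 and 0.0910 (mitochondrial), -0.0157 and 0.0487 (nuclear) and -0.305 and -0.0940 (ratio). Groups of 1 or 2 libraries limit every call.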

Other observations

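The 2 mitochondrial ribosomal RNAs, which are transcribed side by side from the same strand, differed in proportion between libraries. This ratio was chosen after its values were seen and is given without a test. The libraries were mRNA libraries, and whether their rRNA signal follows the amount of rRNA was not tested. The signal of mt-Rnr1 over that of mt-Rnr2 was 0.470 and 0.533 in KI LN, 0.314 and 0.290 in Tg LN and 0.430 and 0.287 in Wt LN. The spleen ratios were 0.492 and 0.530 for KI, 0.305 in Tg and 0.298 and 0.278 in Wt. The 4 KI libraries were the highest of the 11, Wt LN of mouse 1 was the next, and Tg and Wt overlapped in LN. Together the 2 rRNAs made 6.61% and 7.08% of the mitochondrially encoded signal in KI LN against 6.18% and 7.72% in Wt LN. KI spleens had 8.36% and 9.02% against 8.91% and 9.75% in Wt spleen.

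The nuclear members lay on 19 chromosomes, with at most 7 on any 1 of them.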
